A study of Mus musculus with 4 samples.

Results

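MHC class II and its loading machinery were described in cells sorted from mouse melanomas for surface CD11c and MHC class II. The set holds 10 genes matched on symbol among the 32285 genes of the count matrices: H2-Aa, H2-Ab1 and H2-Eb1 (the classical chains), Cd74 (the invariant chain), H2-DMa, H2-DMb1 and H2-DMb2, H2-Oa and H2-Ob, and Ciita. They were named by symbol, with no threshold on a measured value. The tumors were B16-F10 melanomas grown under the skin of C57BL/6 mice, whose age is not given in the sources used here, and each received a single adenovirus preparation on day 12. Ad-Null is the control virus, and every library, the control included, is therefore from virus-injected tumors. Ad-MEM40 appears as ISF35 in its treatment label, a membrane-bound CD40 ligand chimera. Ad-mIFNB carries mouse interferon beta, and Ad-COMBO joins ISF35 and mIFNB. There was 1 library per treatment, pooled from 3 tumors, so virus, pool and library cannot be told apart, and no test between viruses is possible.

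MHC class II molecules are pairs of an α and a β chain that carry peptides to CD4+ T cells. The new pair is held by the invariant chain, whose last fragment, CLIP, fills the groove until H2-DM (an H2-DMa chain with an H2-DMb chain) removes it and edits the peptides, while H2-O (H2-Oa with H2-Ob) binds H2-DM and restrains it. Ciita is the coactivator that switches class II genes on, through factors bound to X and Y boxes in front of them. In dendritic cells (DCs) maturation is known to shut Ciita off while finished class II complexes are kept at the surface, so transcript and surface protein can part.

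The promoter stretches below are shown because Ciita acts through X and Y boxes. They come from RefSeq on GRCm38.p6, each window holding 250 bases before and 50 after a start. Promoters were found for 7 of the 10 genes, and H2-Ab1, Cd74 and Ciita had no entry. Capitals mark the core of an X box (GNAAC) and of a Y box (ATTGG), and each sequence runs 5′ to 3′ on the strand of its gene.
H2-Oa: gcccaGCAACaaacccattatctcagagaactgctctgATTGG
H2-Ob: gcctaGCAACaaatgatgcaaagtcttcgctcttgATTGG
H2-Aa: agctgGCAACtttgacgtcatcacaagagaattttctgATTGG
H2-Eb1: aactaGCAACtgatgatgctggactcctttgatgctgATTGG
These stretches lie at chr17:34092298-34092340 (plus strand), chr17:34238813-34238852 (plus), chr17:34287867-34287909 (minus) and chr17:34305771-34305812 (plus), and their X cores begin 76, 87, 81 and 91 bases before the RefSeq start. GNAAC followed by ATTGG, start to start 28 to 38 bases later on the same strand, was present in 5 of the 7 genes, the fifth being H2-DMb1. Among all 32851 RefSeq promoters of the same 300 bases, 1.82% held such a pair on either strand, whereas 37.4% held ATTGG alone and 84.8% held GNAAC alone. Motif and spacing were set after these promoters had been read, so the comparison is a description. H2-DMa had 2 RefSeq promoters, neither with the pair.

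The H2-DMb genes are neighbouring related genes, and the X box stretch is printed for both because their levels differ below. Capitals mark the X core or the bases in its place.
H2-DMb1: acctaGTAACtgatgatgctaggct
H2-DMb2: acctaTTAACcgatgatgctaggct
They lie at chr17:34153092-34153116 and chr17:34145121-34145145, both on the plus strand. The former falls in the 5′ UTR of a GENCODE transcript although it precedes the RefSeq start. The H2-DMb2 stretch also precedes its RefSeq start but lies within the GENCODE span of that gene. H2-DMb2 had no pair, so its X position was set 33 bases before the first ATTGG of the promoter window. Of the 25 bases 23 were identical, and H2-DMb2 differs from H2-DMb1 by G6T and T11C, counted from 1 at the 5′ end of the stretch. The longest coding transcripts were 69.1% identical in alignment and 65.4% over their last 300 bases, the end a 3′ assay reads. How the counting assigned reads between the copies was not tested, and their separate counts are given with that limit. In GRCm38 coordinates of GENCODE M21 the genes crowd together on chromosome 17: H2-Oa at chr17:34092340-34095234, H2-DMa at chr17:34119541-34139101, H2-DMb2 at chr17:34143307-34151555, H2-DMb1 at chr17:34153072-34160230, H2-Ob at chr17:34238903-34254414, H2-Ab1 at chr17:34257689-34269419, H2-Aa at chr17:34282744-34287823 and H2-Eb1 at chr17:34305867-34316674. Only H2-Aa of these is on the minus strand. Ciita is at chr16:10480059-10528418, plus strand.

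Barcodes with at least 500 genes and at most 10% mitochondrial UMIs (unique molecular identifiers, counted molecules) numbered 8745 in Ad-Null, 15656 in Ad-MEM40, 1810 in Ad-mIFNB and 671 in Ad-COMBO, the order kept for all lists of values below, with median UMIs of 15277, 9483, 13615.5 and 11434. Cells were put into classes by detected marker genes, none of them class II genes, and cells in more than 1 gate were left out (between 103 and 4107 per library), as were ungated cells (between 155 and 3034). The gates held 601, 1103, 235 and 108 cDC1 cells, 2912, 3886, 443 and 91 cDC2 cells, and 656, 1191, 225 and 150 mature DCs. A set of 6 check genes per class, apart from the gate genes, was at least 2-fold above the other cells for 3 to 6 genes in each of these gates. The median cDC1 cell of Ad-Null held 68 UMIs of cDC1 check genes and 0 of cDC2, the median mature DC 30 of its own, 14 of cDC1 and 3 of cDC2, and the median cDC2 cell 9 of its own, 8 of cDC1 and 36 of monocyte check genes. A gate on Ly6c2, Vcan, F10, Chil3, Fn1 and Trem1 raised only Hp among 6 monocyte check genes and is called by its genes. In Ad-Null the monocyte check genes summed to 1520 CPM there, against 2805 CPM in the cDC2 gate. The median cDC2 cell of Ad-mIFNB held 75 UMIs of them and 10 of cDC2 check genes. The cDC2 check genes Sirpa and Itgam did not reach 2-fold in any library. Whether the cDC2 gate includes monocyte-derived cells was not tested. Cells with the minimum of gate genes made up 24.4% to 28.0% of the mature DC gate but 69.2% of the cDC2 gate in Ad-COMBO. Passing barcodes shared by libraries were at most 41 (Ad-Null and Ad-MEM40). Because the sort selected class II protein at the surface, cells without it should have been removed before sequencing, and levels below are those within the sort. The melanoma gate still held 38, 108, 4 and 2 cells.

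Levels are given as counts per 1000000 UMIs (CPM) summed over the cells of a class, and each gene is compared only with itself. The classical chains and Cd74 were highest in the conventional DC classes. H2-Aa stood at 7088, 7020.4, 7961 and 7076 CPM in cDC2, and at 5868, 6348, 6814 and 6560.3 CPM in cDC1. In mature DCs H2-Aa was at 6120.2, 5312, 5528 and 3806 CPM, and the Ad-COMBO value lay apart below the rest. Plasmacytoid DCs (pDCs) had 2549.9 and 2639 CPM in Ad-Null and Ad-MEM40, the libraries with at least 50 such cells, and macrophages had 1920.4, 2085 and 1727 CPM in Ad-Null, Ad-MEM40 and Ad-mIFNB. The Ly6c2/Vcan gate lay between pDCs and DCs, at 3119.5 and 3283 CPM. Melanoma cells, which the sort should have removed, held 208 CPM of H2-Aa in the 108 cells of Ad-MEM40. For H2-Aa the order of classes was therefore cDC2, cDC1, the Ly6c2/Vcan gate, pDCs, macrophages and melanoma cells in each library where they were described. Mature DCs were above cDC1 for H2-Aa only in Ad-Null. H2-Ab1 in mature DCs of Ad-Null (6414 CPM) was below that in cDC1 (7997 CPM). H2-Eb1 was lower in pDCs (1639 and 1782 CPM) than in macrophages (1884 and 2053 CPM) of Ad-Null and Ad-MEM40.

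H2-Ab1, H2-Eb1 and Cd74 followed nearly the same profile. Over the 20 class and library profiles of at least 50 cells, Pearson r of log2 CPM with H2-Aa was 0.988 for H2-Ab1, 0.990 for H2-Eb1 and 0.997 for Cd74, a description over profiles that share libraries. Cd74 reached 17606, 16735, 18470.2 and 15944 CPM in cDC2, and 14798, 11765, 11491 and 8499 CPM in mature DCs. In macrophages Cd74 was at 4928, 5242 and 4511 CPM. Its UMIs per classical chain UMI were 0.674 to 0.770 across the cDC1, cDC2 and mature DC gates, 0.831 to 0.857 in macrophages, and 1.05 and 1.02 in pDCs. Invariant chain transcripts were thus a larger part of the set in pDCs than in the other DC classes.

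Classes were compared within libraries by edgeR's quasi-likelihood test on UMIs summed per class and library (23 sums, library as block), with Benjamini-Hochberg adjustment over 12424 genes and a call at an adjusted p of at most 0.05 and 1.5-fold. The p-values set a class difference against the spread left after class and library, pooled over all classes in the fit. That spread mixes treatment, pool and library. Between macrophages and cDC2 all 10 genes were lower, where 14.4% of all genes were called lower and 16.5% higher. The log2 differences were −2.23 ± 0.13 (SE) for H2-Aa (adjusted p = 5.34e-11), −2.44 for H2-Ab1, −2.37 for H2-Eb1 and −2.12 for Cd74. They were larger for H2-Oa (−4.90 ± 0.29, adjusted p = 2.76e-10), H2-DMb2 (−4.03) and H2-Ob (−3.81) than for H2-DMa (−1.94) and H2-DMb1 (−2.08), and Ciita differed by −2.80. The median over the set was −2.40, against 0.00 over all genes tested, and each gene was lower in 4 of 4 libraries.

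Between pDCs and cDC1, in 3 libraries, 9 of the 10 genes were lower (19.5% of all genes were) and H2-Oa alone was higher (16.5%). H2-Ab1 differed by −2.08 ± 0.17, H2-Eb1 by −2.22, H2-Aa by −1.49 and Cd74 by −1.38. The median over the set was −1.79 against −0.14 over all genes. The call for H2-DMb2 (−1.23) was lost without TMM scaling, without called doublets and without any of the Ad-Null, Ad-MEM40 and Ad-mIFNB libraries. That for H2-Oa was lost without Ad-MEM40 or Ad-mIFNB.

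**Figure D1:**
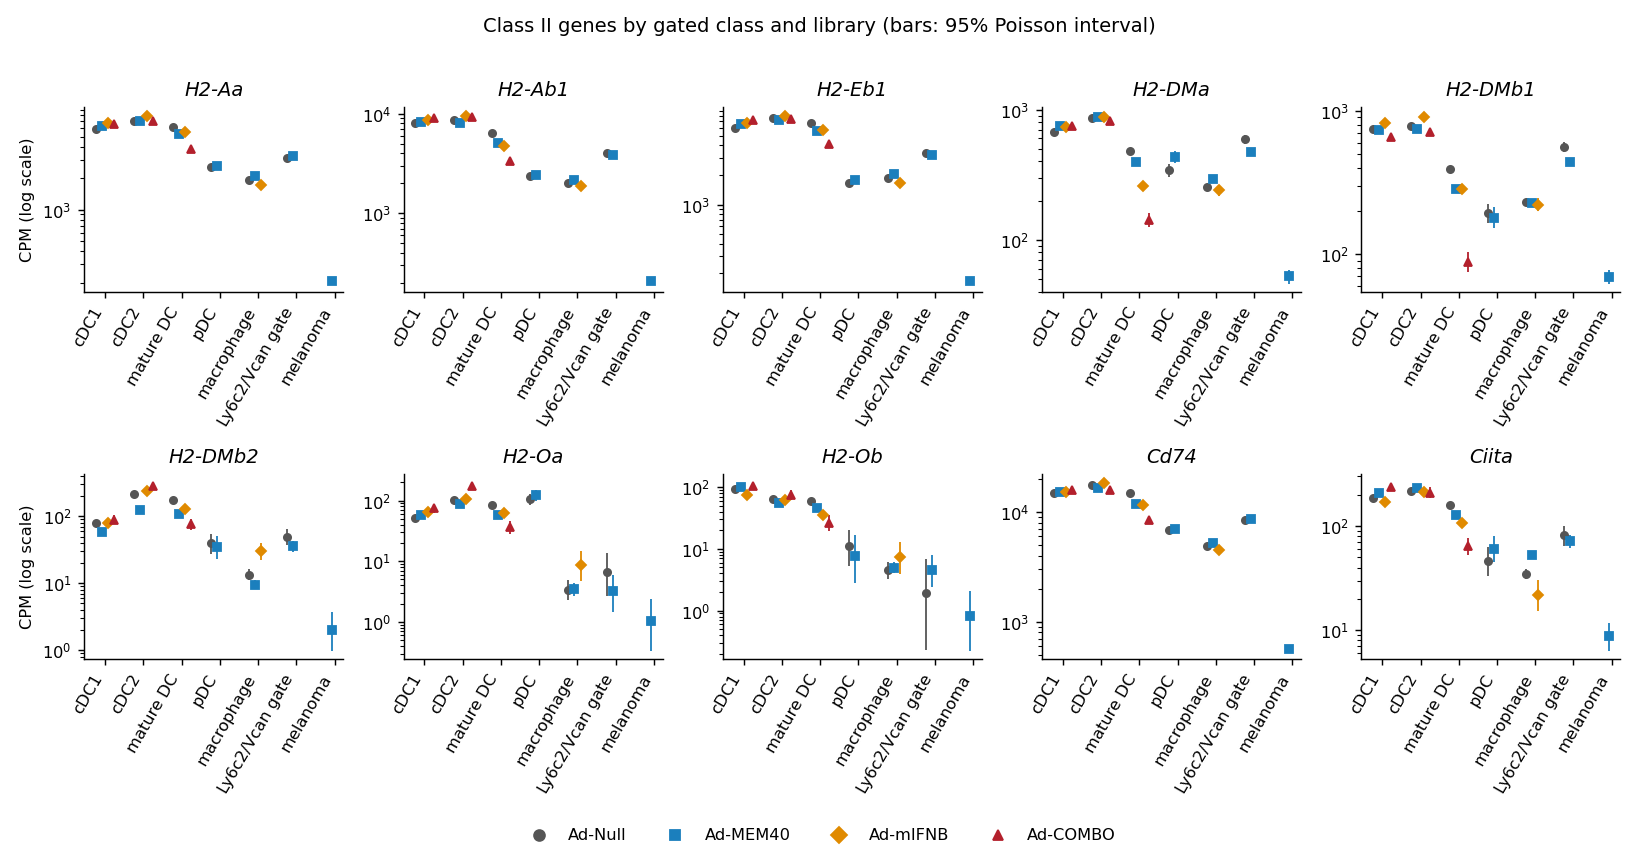
CPM (log scale) of each of the 10 genes by gated class, with a point per library (grey circle Ad-Null, blue square Ad-MEM40, orange diamond Ad-mIFNB, red triangle Ad-COMBO) and 95% Poisson intervals, which cover counting error only. For H2-Aa, H2-Ab1, H2-Eb1 and Cd74 the 4 libraries nearly coincide in cDC1 and cDC2, while the red triangle is lowest for every gene in mature DCs.

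Between cDC2 and cDC1 the chains differed little. Called higher in cDC2 were 2 genes, H2-DMb2 and H2-Oa (15.0% of all genes were), and 0 were called lower (11.6%). H2-Aa differed by 0.17 ± 0.12, H2-Ab1 by 0.05 and Cd74 by 0.15, all with adjusted p above the threshold. The median over the set was 0.15, against −0.00 over all genes.

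H2-DMa, the α chain of the peptide editor, was at 669, 749.9, 733 and 744 CPM in cDC1 and at 867, 871, 883 and 816 CPM in cDC2. In mature DCs H2-DMa was at 479.6, 396, 259 and 142 CPM. The 95% Poisson interval was 468 to 492 CPM in Ad-Null and 125 to 161 CPM in Ad-COMBO. These intervals cover counting error only, not the spread between tumors. H2-DMb1, its partner chain, was at 745, 733, 816 and 658 CPM in cDC1, and at 392, 286, 287 and 89.0 CPM in mature DCs. All values of both genes in mature DCs lay below all in cDC1. The class test described above gave −1.20 ± 0.22 for H2-DMa (adjusted p = 0.00027) and −1.52 ± 0.20 for H2-DMb1 (adjusted p = 6.66e-06), lower in 4 of 4 libraries, and without the Ad-COMBO library −0.89 and −1.20, both still called.

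Of the 10 genes, 5 were called lower in mature DCs than in cDC1 (17.0% of all genes were): H2-Ab1 (−0.77 ± 0.15), H2-DMa, H2-DMb1, H2-Ob (−1.04 ± 0.15) and Ciita (−0.76 ± 0.25, adjusted p = 0.0164). H2-Ab1 and Ciita lost the call without Ad-COMBO (−0.57 and −0.46), and Ciita also without Ad-mIFNB. H2-DMb2 was the 1 gene called higher (23.8% of all genes were), at 0.76 ± 0.26. That call was lost with DESeq2, without the library block, with 1 more marker per gate, with cDC1 and cDC2 double-gated cells counted as cDC1, and without Ad-Null or Ad-MEM40. H2-Aa (−0.27), H2-Eb1 (−0.24) and H2-Oa (0.10) had adjusted p values of 0.0661, 0.27 and 0.704, and Cd74 (−0.37, adjusted p = 0.0172) stayed under 1.5-fold. The fitted sign of H2-Oa differs from that of its mean CPM, 60.2 in mature DCs and 61.9 in cDC1.

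The H2-DMb copies did not move together across classes. H2-DMb2 was at 79.8, 58.2, 78.4 and 89.6 CPM in cDC1 and at 216, 125, 242 and 289 CPM in cDC2, so that each cDC2 value exceeded each cDC1 value. The class difference was 1.46 ± 0.26 (adjusted p = 0.000282), higher in 4 of 4 libraries, whereas H2-DMb1 differed by 0.08. H2-DMb2 made up 9.67%, 7.36%, 8.77% and 12.0% of H2-DMb UMIs in cDC1, 21.7%, 14.3%, 21.0% and 29.0% in cDC2, and 31.1%, 27.4%, 30.8% and 46.1% in mature DCs. In every library the share was smallest in cDC1 and largest in mature DCs of these 3 classes, and it was 5.51%, 4.06% and 12.1% in macrophages. The Ad-COMBO share in mature DCs rests on 130 H2-DMb2 and 152 H2-DMb1 UMIs (95% Clopper-Pearson interval 40.2% to 52.1%).

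The H2-O chains were split between DC classes. H2-Oa was at 51.5, 57.3, 63.9 and 74.8 CPM in cDC1 and at 104, 87.3, 108 and 174 CPM in cDC2, a difference of 0.87 ± 0.20 (adjusted p = 0.00187). H2-Ob went the other way, with 91.8, 99.6, 74.0 and 103 CPM in cDC1 and 64.7, 55.0, 61.8 and 74.9 CPM in cDC2, lower in 4 of 4 libraries at −0.56 ± 0.15 (adjusted p = 0.00396) but just under 1.5-fold. In pDCs H2-Oa reached 104 and 123 CPM while H2-Ob was at 11.0 and 7.77 CPM, from 10 and 6 UMIs. The pDC difference from cDC1 was 0.91 ± 0.27 for H2-Oa (adjusted p = 0.0113) and −3.54 ± 0.33 for H2-Ob (adjusted p = 9.14e-09). H2-Oa therefore supplied 90.5% and 94.1% of H2-O UMIs in pDCs, 61.3% to 69.9% in cDC2 and 36.0% to 46.4% in cDC1.

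Macrophages held almost no H2-O transcript, with 3.38, 3.43 and 8.74 CPM of H2-Oa and 4.54, 4.98 and 7.49 CPM of H2-Ob. Their H2-O UMIs per 100 H2-DM UMIs (a ratio of counts, not of molecules) were 1.59, 1.59 and 3.30, and 0.719 and 0.824 in the Ly6c2/Vcan gate. The same ratio was 9.59, 10.2, 8.48 and 11.9 in cDC1, 9.05, 8.15, 8.36 and 13.8 in cDC2, 13.6, 13.0, 14.7 and 20.4 in mature DCs, and 20.0 and 20.2 in pDCs. In each of the 4 libraries the ratio was higher in mature DCs than in cDC1 and in cDC2.

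**Figure D2:**
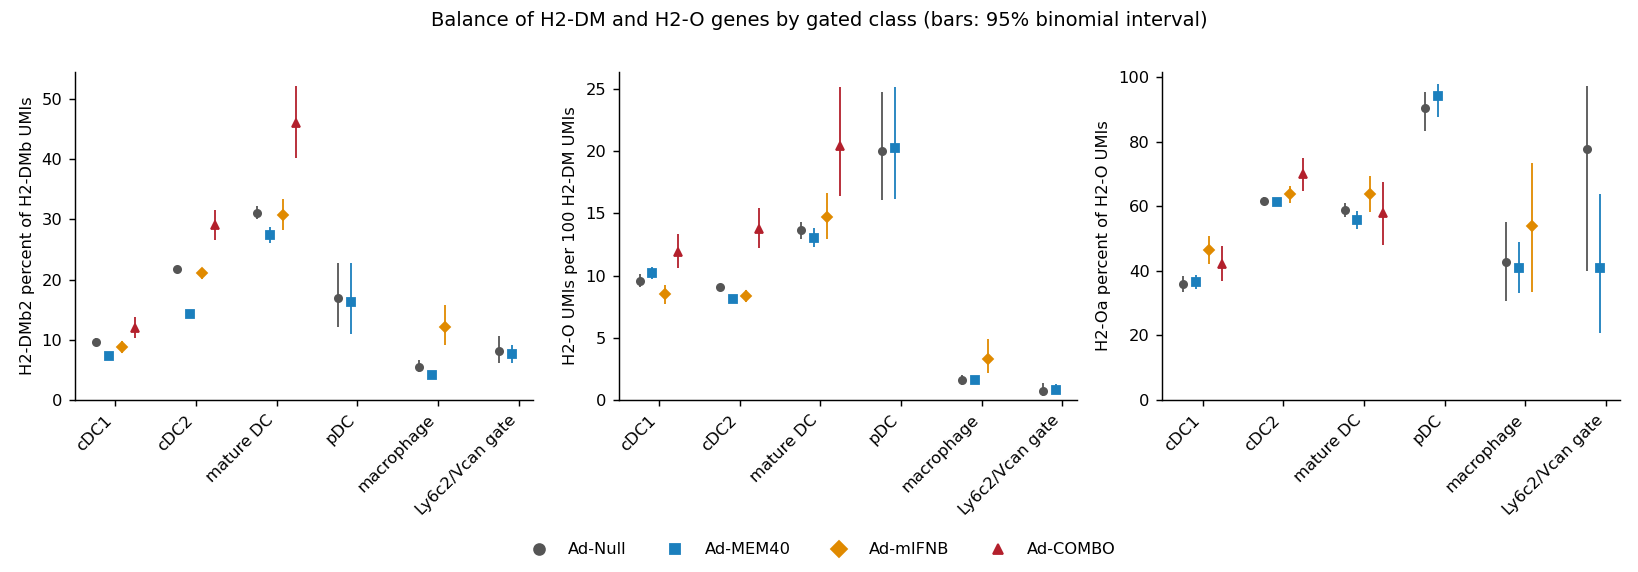
Share of H2-DMb2 among H2-DMb UMIs, H2-O UMIs per 100 H2-DM UMIs and share of H2-Oa among H2-O UMIs, by gated class, with a point per library in the colours used above and 95% binomial intervals. The H2-DMb2 share climbs from cDC1 to mature DCs, H2-O is nearly absent in macrophages, and H2-Oa supplies 90.5% and 94.1% of H2-O counts in pDCs.

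Ciita, the master coactivator, was at 185, 207, 169.6 and 238 CPM in cDC1 and at 218, 232, 211 and 209 CPM in cDC2, a difference of 0.11 ± 0.24 (adjusted p = 0.776). In mature DCs it was at 158, 127, 106 and 63.8 CPM, below cDC1 and cDC2 in every library. It was at 46.2 and 60.8 CPM in pDCs, at 34.8, 53.0 and 21.8 CPM in macrophages and at 8.76 CPM in melanoma cells of Ad-MEM40. After each cell was thinned to 3000 UMIs, a Ciita UMI was found in 41.3%, 45.9%, 34.7% and 56.6% of cDC1 cells, and in 29.8%, 25.9%, 19.1% and 6.92% of mature DCs, the last from 9 of 130 cells. The unthinned shares in mature DCs were 61.4%, 44.9%, 31.1% and 17.3%. Melanoma cells of Ad-MEM40 had a Ciita UMI in 4.12% after thinning and in 20.4% unthinned, and whether this is background was not tested. Their median was 45377.5 UMIs, against 8907.5 in mature DCs of Ad-COMBO. The Ad-COMBO share in mature DCs (95% interval 3.21% to 12.7%) overlaps that of melanoma cells (1.13% to 10.2%). The CPM intervals were 52.4 to 77.0 against 6.34 to 11.8, and all these intervals cover counting error only.

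Partner genes of the pathway were 27 in all, from a textbook list of transcription factors, proteases and surface regulators. For mature DCs against cDC1, 18 were called higher and 5 lower, where 23.8% and 17.0% of all genes were. Of the factors that bind the X and Y boxes, Rfx5 (0.94), Rfxank (0.71) and Nfya (0.59) were higher and Rfxap (−0.60) and Nfyb (−0.75) lower, while Nfyc (0.18) and Creb1 (0.48) were not called. Among partners listed as regulators of Ciita, Prdm1, which encodes a repressor, was higher (3.09) and Irf8 lower (−1.06). Irf1 (1.00) and Tcf4 (1.49) were also higher, and Spi1 (0.08) was not called. Prdm1 had a mean of 1.21 CPM in cDC1, and against cDC1 it was also called higher in cDC2 (2.43) and pDCs (2.04). Ciita differed from cDC1 by 0.11 (not called) in cDC2 and by −2.17 in pDCs. The part of these regulators in Ciita levels was not tested. Among processing genes, those called higher included Lgmn (2.60), Ctsh (1.62), Ctsd (1.72), Ctsb (0.97), Ctss (0.79) and the thiol reductase gene Ifi30 (1.03), whereas the cathepsin inhibitor gene Cst3 was lower (−0.71). Macrophage check genes summed to 509, 748, 214 and 222 CPM in the mature DC gate and to 220.2, 275, 135 and 126 CPM in cDC1, and their part in these differences was not tested. March1, the ubiquitin ligase that removes class II from the surface, was lower (−2.44, adjusted p = 2.6e-07), and Cd83, which opposes it, was higher (1.08). H2-Eb2, another class II β chain gene, was higher (4.17, adjusted p = 4.45e-13). These differences stand beside lower H2-DMa, H2-DMb1, H2-Ob and Ciita in the same cells.

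For cDC2 against cDC1, 12 partners were higher and 3 lower, where 15.0% and 11.6% of all genes were. Ctss (1.42), Ctsh (1.48) and Lgmn (1.68) were higher and March1 (−0.92) lower. The 7 listed factors that bind the X and Y boxes were not called. Among partners listed as regulators of Ciita, Irf8 was lower (−3.82). Irf1 (0.79), Tcf4 (1.37) and Prdm1 (2.43) were higher, and Spi1 (0.58) was not called. For macrophages against cDC2, 8 were higher and 6 lower (16.5% and 14.4% of all genes), with Lgmn (2.92), Ctsl (2.84), Ctsb (2.81) and March8 (2.66) higher and Rfx5 (−1.18) and Ifi30 (−1.10) lower. For pDCs against cDC1, 9 were higher and 7 lower (16.5% and 19.5% of all genes), with Ctsl (5.44) and Rfxank (1.49) higher and March1 (−3.23), Cd83 (−3.80) and Nfyb (−0.86) lower. The proteases called higher in macrophages thus stood beside 10 class II genes called lower, while Ctsh (−0.25) and Ctsz (0.53) were not called.

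Summed over all passing cells, the virus libraries differed little from the control in the set. Against Ad-Null, 1 gene was past 1.5-fold in Ad-MEM40, H2-DMb2 at 67.5 against 129 CPM (lower; 0.340% of all genes were), and none was higher (0.776%). In Ad-mIFNB 0 were past 1.5-fold in either direction (2.65% of genes higher, 1.41% lower), with log2 ratios of −0.12 to 0.15, and in Ad-COMBO 0 (5.98% higher, 3.22% lower), with −0.44 to 0.19, or 1 with each cell weighted equally. Ratios are of CPM + 5 and understate differences of low genes. Of the partners, 0 of 27 were past 1.5-fold in Ad-MEM40 and 2 were higher in Ad-mIFNB, among them H2-Eb2 (0.64). In Ad-COMBO 7 were higher, among them Irf1 (0.96), Ctsl (1.10), Cst3 (0.86), Sppl2a (0.66), Cd83 (0.63) and H2-Eb2 (0.77). Cell makeup differed between libraries, with mature DCs at 7.50%, 7.61%, 12.4% and 22.4% of passing cells, so the comparison was repeated within classes.

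In cDC1 0 genes were past 1.5-fold in Ad-MEM40 (0.621% of genes higher, 0.464% lower), Ad-mIFNB (4.68%, 3.59%) or Ad-COMBO (7.78%, 7.58%). Their log2 ratios ranged from −0.42 to 0.16, from −0.29 to 0.29 and from −0.18 to 0.50. With cells of both the cDC1 and cDC2 gates counted as cDC1, Ad-MEM40 had 1. In cDC2 H2-DMb2 was lower in Ad-MEM40 (−0.76; 0.288% of genes were lower), at 125 against 216 CPM. H2-Oa was higher in Ad-COMBO (0.72; 8.12% of genes were higher), at 174 against 104 CPM, from 228 UMIs of 91 cells. Ad-mIFNB cDC2 stayed between −0.06 and 0.22. Macrophages of Ad-mIFNB had 2 genes higher (5.35% of genes were), H2-DMb2 (0.95) and H2-Oa (0.71), resting on 49 and 14 UMIs, and both fell under 1.5-fold with 1 more marker in the gate. The CPM of H2-DMb2 was lower in Ad-MEM40 than in Ad-Null in each gate described, also where it did not reach 1.5-fold. Examples were cDC1 (58.2 against 79.8) and pDCs (34.9 against 39.6, from only 27 and 36 UMIs). In macrophages (9.58 against 13.4) the log2 ratio of −0.34 became 0.06 with 1 more marker in the gate.

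**Figure D3:**
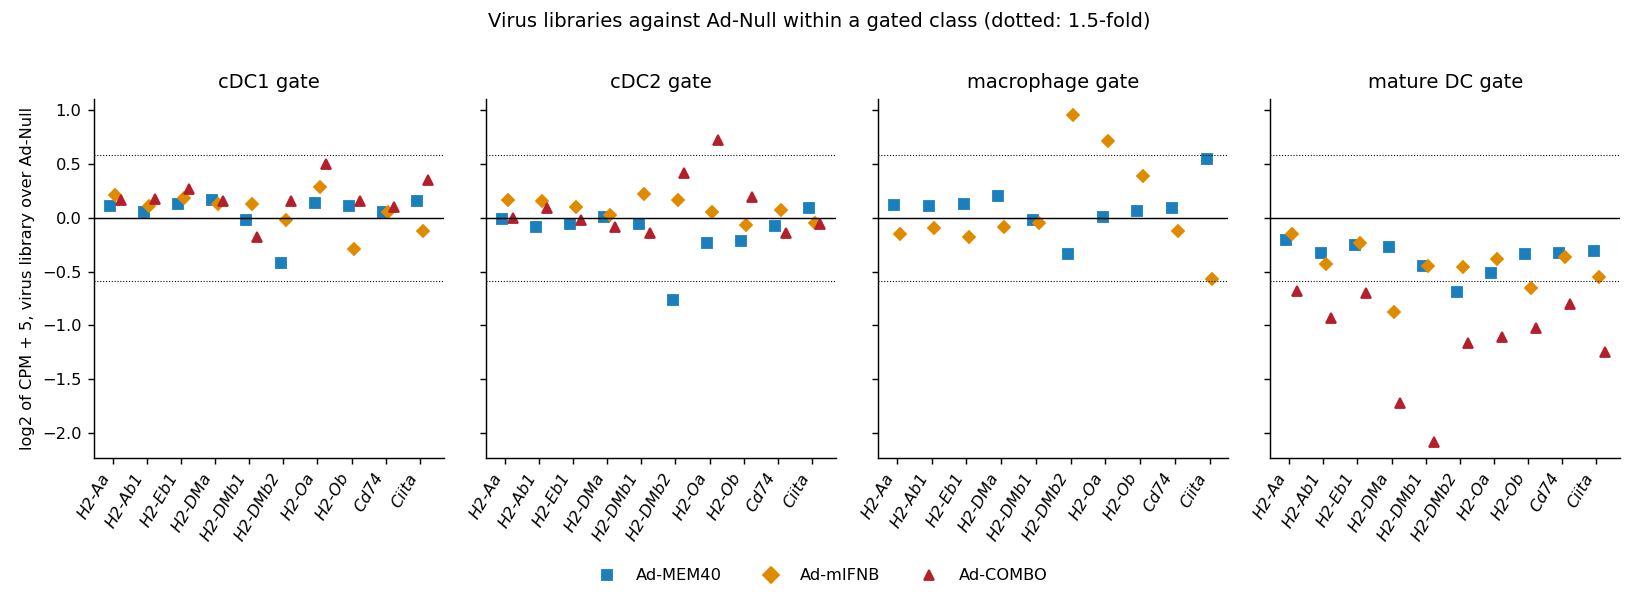
Log2 ratio of CPM + 5 of each virus library to Ad-Null for the 10 genes in the cDC1, cDC2, macrophage and mature DC gates, with dotted lines at 1.5-fold. Points stay near 0 in cDC1, and in mature DCs all 10 red triangles (Ad-COMBO) lie below the lower line.

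In mature DCs the set was lower in every virus library than in Ad-Null, and furthest in Ad-COMBO. There 10 of 10 genes were past 1.5-fold lower, where 17.1% of all genes were lower and 11.2% higher. H2-DMb1 had the largest log2 ratio, −2.08 (95% counting interval without the pseudocount −2.38 to −1.91), followed by H2-DMa at −1.72 (−1.94 to −1.57). Ciita followed at −1.25, H2-DMb2 at −1.17, H2-Oa at −1.11 (36.3 against 84.1 CPM) and H2-Ob at −1.03 (26.3 against 58.9 CPM). The abundant chains were lower by less, H2-Ab1 at −0.93 (3365 against 6414 CPM), Cd74 at −0.80, H2-Eb1 at −0.70 (4113 against 6697 CPM) and H2-Aa at −0.68. The median of the set was −1.07, against −0.08 over all genes tested. All 10 were past 1.5-fold lower in each of the 6 alternative settings that could change these values.

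Ad-MEM40 had 1 gene past 1.5-fold lower in mature DCs, H2-DMb2 (−0.69; 0.688% of genes were lower), in a range of −0.69 to −0.20; with 1 more marker in the gate there were 2, and among cells with all 6 gate genes 0. Ad-mIFNB had 2, H2-DMa (−0.88) and H2-Ob (−0.65), where 7.25% of genes were lower, in a range of −0.88 to −0.15. With each cell weighted equally Ad-mIFNB had 8. Medians were −0.33 and −0.44, against 0.04 and −0.06 over all genes. Ad-COMBO was also below each single virus: the 10 log2 ratios ran from −1.63 to −0.45 against Ad-MEM40 and from −1.63 to −0.38 against Ad-mIFNB, with H2-DMb1 at −1.63 in both and medians over all genes of −0.12 and −0.04. These comparisons share the Ad-COMBO library. H2-DM UMIs per 100 UMIs of the chains and Cd74 were 3.08, 2.84, 2.45 and 1.55 in mature DCs, and 4.31, 4.22, 4.32 and 3.86 in cDC1.

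Partner genes in mature DCs of Ad-COMBO were past 1.5-fold higher for 9 of 27 and lower for 4, where 11.2% and 17.1% of all genes were. March1 (−1.42, at 15.8 against 50.8 CPM), Ctsl (−1.44), Ctsd (−1.12) and Ctsb (−0.77) were lower. Cst3 (0.94), Cd83 (0.78), Irf1 (1.01), Nfya (0.64), Prdm1 (0.89) and Lgmn (0.65) were among the higher. Prdm1 rested on 36 UMIs, at 21.1 against 9.03 CPM.

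Other measures also differed between the libraries. The mature DC check genes (Socs2, Relb, Cd200, Il15ra, Cd274 and Samsn1, none at 0) were summed in the mature DC gate. They stood at 1772, 1927, 2699 and 3927 CPM from Ad-Null to Ad-COMBO, though Samsn1 was lower in Ad-MEM40 (616) than in Ad-Null (661). The gate genes Ccr7 (from 1289 to 2171 CPM), Fscn1 (from 561 to 1224 CPM), Cacnb3 and Il4i1 were higher in the same order. Gate genes that broke this order were Ccl22, at 505, 785, 476 and 904 CPM, and Nudt17, at 70.3, 68.1, 77.7 and 90.8 CPM. The cDC2 check genes summed to 433, 353, 343 and 184 CPM and the macrophage check genes to 509, 748, 214 and 222 CPM, with Cd209a, a cDC2 gate gene, at 123, 38.0, 5.62 and 0 CPM. Melanoma check genes summed to 96.9, 204, 12.9 and 9.37 CPM. Median UMIs per mature DC were 15312.5, 7490, 11031 and 8907.5. The part of these in the class II values was not tested.

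The difference between libraries depended on how many of the 6 mature DC gate genes a cell showed. Among cells with 3, the chains and Cd74 made up 3.60% of UMIs in Ad-Null and 2.84% in Ad-COMBO, and Ciita was at 180.0 and 170.4 CPM, with overlapping intervals. Among cells with all 6, the chains and Cd74 made up 3.05% and 1.18%, H2-DM summed to 885 and 51.2 CPM, and Ciita was at 123 and 13.3 CPM, the latter from 6 UMIs in 25 cells. H2-DM in Ad-COMBO went from 635 through 379 and 259 to 51.2 CPM as the number went from 3 to 6, and in Ad-Null from 1198 through 1172 and 1050.1 to 885 CPM. Cells with more gate genes also held more UMIs, 17979 on average with all 6 against 8275 with 3 in Ad-COMBO. Single viruses lay between, with H2-DM at 677 CPM in Ad-MEM40 and 554 CPM in Ad-mIFNB among cells with all 6.

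**Figure D4:**
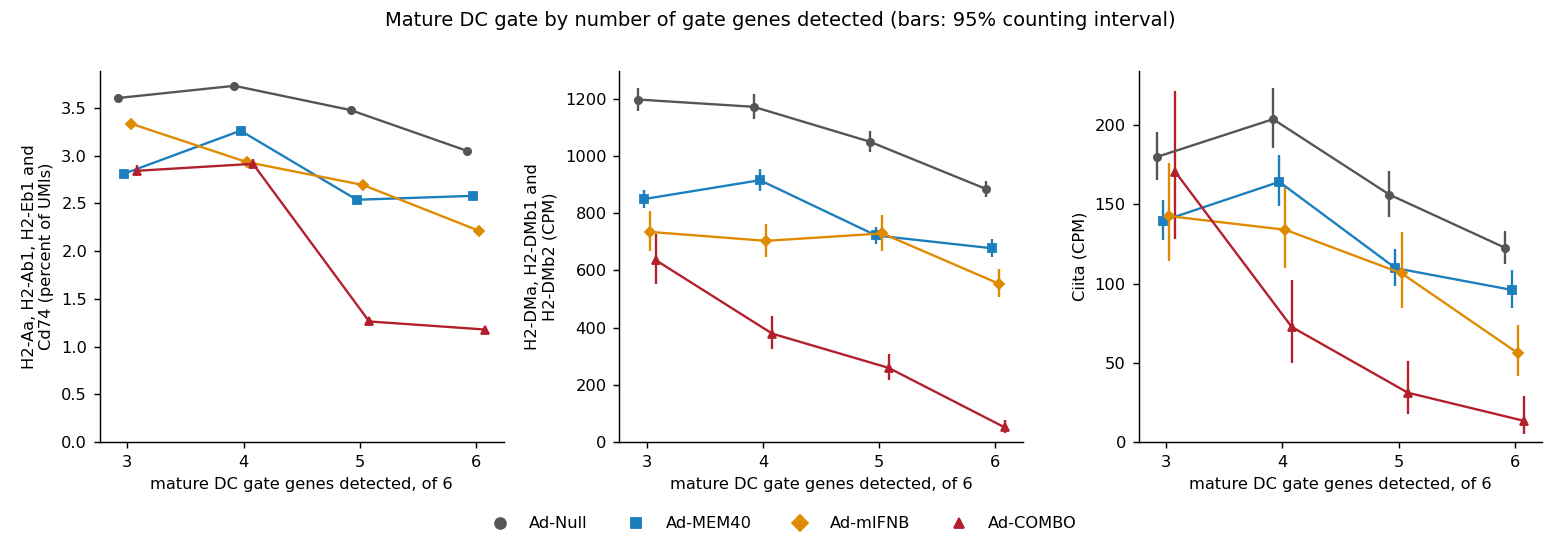
Mature DC gate split by the number of gate genes detected (3 to 6, x axis): percent of UMIs in H2-Aa, H2-Ab1, H2-Eb1 and Cd74, CPM of H2-DM genes and CPM of Ciita, per library, with 95% counting intervals. The Ad-COMBO line falls to 51.2 CPM of H2-DM and 13.3 CPM of Ciita at 6 genes, below the other libraries, while at 3 genes its Ciita interval overlaps that of Ad-Null.

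Per cell, mature DCs differed in spread as well as in level. The median cell gave 3.27%, 2.51%, 1.56% and 0.528% of its UMIs to H2-Aa, H2-Ab1, H2-Eb1 and Cd74, and the 5th to 95th percentiles ran from 0.324% to 6.29% in Ad-Null and from 0.0527% to 4.80% in Ad-COMBO. Cells under 1% were 134 of 656 in Ad-Null (20.4%), 28.7% in Ad-MEM40, 41.8% in Ad-mIFNB and 93 of 150 in Ad-COMBO (62.0%, 95% Clopper-Pearson interval 53.7% to 69.8%). Cells under 1% were shallower, at median UMIs of 8884, 5434.5, 6636.5 and 6784 against 16479, 8819, 15710.0 and 15285 in the other mature DCs. The 95th percentile of Ad-COMBO lay above the median of Ad-Null, so the distributions overlapped in part. Most Ad-COMBO cells were lower, with an 82nd percentile of 2.88% against the Ad-Null median of 3.27%. The Ad-COMBO median of 0.528% was near the 10th percentile of Ad-Null, 0.505%.

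In cDC1 the 5th to 95th percentiles were closer together, from 1.89% to 5.43% in Ad-Null and from 1.67% to 6.02% in Ad-COMBO, whereas in cDC2 they ran from 1.28% to 6.58% in Ad-Null and from 0.311% to 8.65% in Ad-COMBO. The median share was 3.46%, 3.68%, 3.75% and 3.67% in cDC1 and 4.22%, 4.07%, 4.54% and 4.26% in cDC2, and cells under 1% were at most 3.70% of cDC1 and 3.50%, 3.60%, 2.93% and 8.79% of cDC2. Macrophages were low and wide, with medians of 0.693%, 0.845% and 0.512% and 59.9%, 55.9% and 68.0% of cells under 1%. Melanoma cells of Ad-MEM40 had a median of 0.0636%, and the 5th percentile of Ad-COMBO mature DCs (0.0527%) lay below it. Median depth differed, at 45377.5 UMIs in those melanoma cells and 8907.5 in Ad-COMBO mature DCs. Whether the melanoma value is background was not tested.

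**Figure D5:**
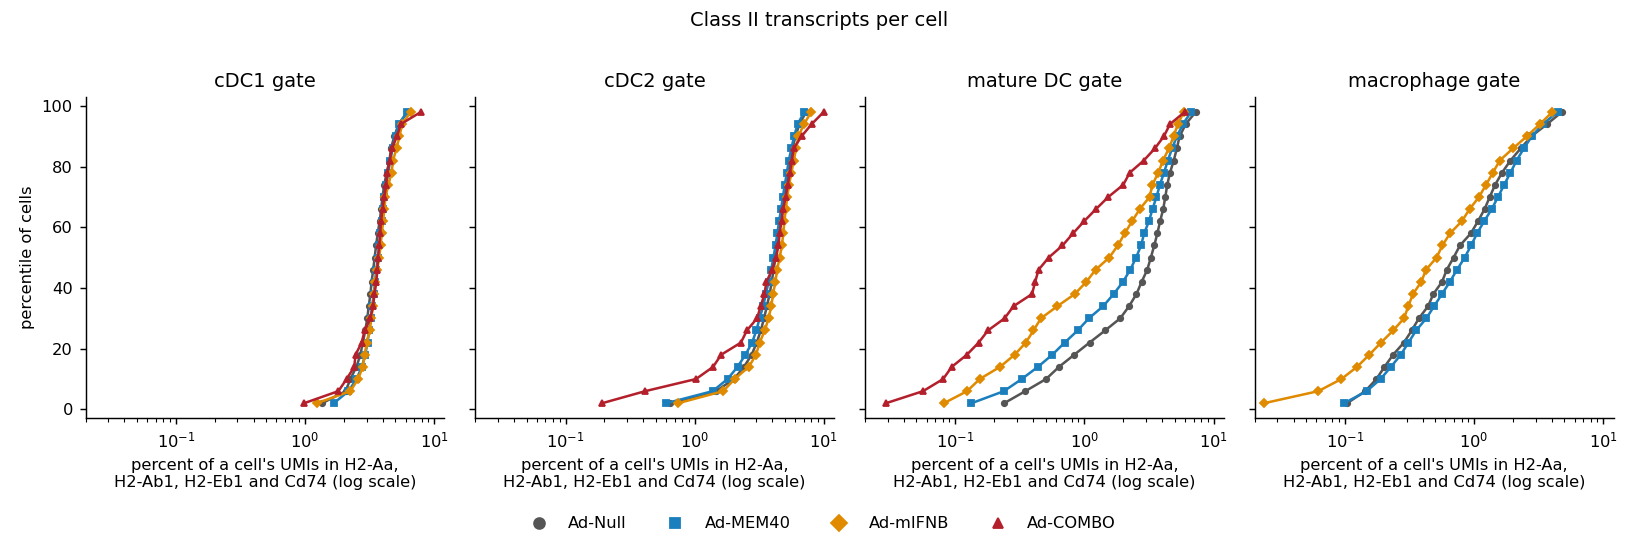
Percentiles of cells (y axis) against the percent of a cell's UMIs in H2-Aa, H2-Ab1, H2-Eb1 and Cd74 (x axis, log scale), per library, in the cDC1, cDC2, mature DC and macrophage gates. Lines of the 4 libraries overlie each other in cDC1, whereas in mature DCs the median falls from 3.27% in Ad-Null to 0.528% in Ad-COMBO.

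Genes of most like profile were sought among 8178 genes over the same 20 profiles, by Pearson r of log2(CPM + 5), as a description without a test, since profiles share libraries and depth. Nearest to the mean of the chains and Cd74 were Pim1 (0.94), Fmnl1 (0.94), Pip4k2a (0.93), Gpsm3 (0.93) and Btg2 (0.93). H2-DMa was nearest to Arhgap15 (0.94), H2-DMb1 to Prkd3 (0.95), H2-DMb2 to Napsa (0.92) and Ciita to H2afy (0.91). H2-Oa was nearest to Kmo (0.98) and H2-Ob to Kit (0.96). Among the 5 nearest genes of each, Napsa was shared by H2-DMb2 and H2-Oa, and Itgb7 by H2-DMa and Ciita.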

How the data were processed

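Cells of 4 single-cell libraries were analysed from the UMI counts per gene and barcode that the authors deposited, used as they are. Per the submitters' processing notes the reads went through Cell Ranger 3.0 against mm10 and Seurat 4.0, whereas the matrix headers name cellranger 6.0.0. The members and the lists were chosen with earlier results of these data known. GENCODE M21 listed 32158 of the 32285 identifiers, and 0 value columns were unmapped. H2-Ea is not analysed here.

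Barcodes with at least 500 genes and at most 10% mitochondrial UMIs were kept (9748429 to 181854752 UMIs a library). Gates needed 2 detected genes of Xcr1, Clec9a, Tlr3, Gcsam and Itgae (cDC1), 2 of Cd209a, Clec10a, Flt3, Ifitm1 and Tnip3 (cDC2), 3 of Ccr7, Fscn1, Cacnb3, Nudt17, Ccl22 and Il4i1 (mature DC), 3 of Siglech, Ccr9, Cox6a2, Klk1 and Ly6d (pDC), C1q genes at 20 UMIs per 10000 with 2 of 3 further genes, Ms4a7 and Adgre1 among them (macrophage), or melanocyte genes at 20 per 10000 (melanoma). Classes of at least 50 cells were described. Doublets were not called in the main analysis, and Scrublet (scanpy 1.11.5) removal, of 1459, 2278, 3 and 3 cells, was an alternative.

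UMIs were summed per class and library as CPM, and log2 ratios had 5 CPM added and needed 20 UMIs over both libraries. CPM have exact Poisson intervals and shares Clopper-Pearson intervals at 95% (scipy 1.17.1, Python 3.11.15), which cover counting error only. Classes with at least 20 cells entered edgeR 4.0.16 (R 4.3.3; TMM, filterByExpr, library block, 13 residual degrees of freedom), with DESeq2 1.42.0 as an alternative. Class sums of 25 pDCs in Ad-mIFNB and 45 macrophages in Ad-COMBO entered that fit only. Other alternatives were scaling, filters, pseudocount, cell weighting, stricter gates and leaving out each library. The class test was also run on simulated counts with known folds planted in cDC2.

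Named were all members, partner genes past 1.5-fold in all cells or called between classes, and the X and Y box factors of the partner list in any case. Also named were the genes of highest Pearson r with the chains and with each other member, among genes of at least 20 CPM in a profile. A gene of the partner list is not reported here.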

Additional observations from a re-analysis of the deposited data

Results flagged for a closer look

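H2-Oa, the α chain of the H2-DM inhibitor, was past 1.5-fold in opposite directions in 2 classes of the same pair of libraries. Against Ad-Null its log2 ratio in Ad-COMBO was 0.72 in the cDC2 gate, from 228 UMIs in 91 cells, and −1.11 in the mature DC gate, from 62 UMIs in 150 cells. The difference between the classes was not tested, since each treatment has 1 library. In the cDC2 gate of Ad-COMBO 69.2% of cells had only the minimum of gate genes, against 30.1% in Ad-Null.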

How the results depend on the processing

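Each virus had 1 library, so spread between tumors was not measured, and levels under 20 UMIs over both libraries were not compared. The 10 genes stayed past 1.5-fold lower in mature DCs of Ad-COMBO in each of the 6 alternatives that could change these values, with H2-DMb1 between −2.22 and −1.62 and H2-Aa between −1.11 and −0.62. With member, mitochondrial and ribosomal protein genes left out of the total, the median of all genes there was −0.18. Of the counts of genes past a threshold, 12 moved by over 1.5 times and 156 did not. Log2 virus ratios of single genes moved in 332 cases by more than the mean arm of their counting interval and in 908 did not, with 0 called ratios turning sign, and shares and ratios by class moved in 42 cases and not in 75. With each cell weighted equally, Ad-COMBO in all cells had 1 gene past 1.5-fold (0 as reported), mature DCs of Ad-mIFNB 8 (2) and the Ly6c2/Vcan (monocyte) gate of Ad-MEM40 1 (0). With 1 more marker per gate, mature DCs of Ad-MEM40 had 2 (1), macrophages of Ad-MEM40 1 (0) and of Ad-mIFNB 0 (2), and the Ly6c2/Vcan gate of Ad-MEM40 1 (0). With a pseudocount of 1 CPM, macrophages of Ad-MEM40 had 1 and of Ad-mIFNB 4, and without called doublets those of Ad-MEM40 had 1. For 2 alternatives chosen after seeing the data, cDC1 of Ad-MEM40 had 1 with cells of both the cDC1 and cDC2 gates counted as cDC1, and mature DCs of Ad-MEM40 had 0 among cells with all 6 gate genes. The causes were not tested. H2-Oa in mature DCs against cDC1, at 0.10, turned to −0.11 with those double-gated cells counted as cDC1 and lay between −0.20 (without Ad-Null) and 0.31 (without Ad-COMBO) when a library was left out. Leaving out each library in turn gave 4 to 5 called genes for mature DCs against cDC1 (6 with all), 2 to 3 for cDC2 against cDC1, 10 for macrophages against cDC2 and 8 to 10 for pDCs against cDC1. Without the library block the counts were 5, 2, 10 and 10. The class comparisons are paired by library, and none could be paired between treatments, which have 1 library each. With 1 more marker the cDC2 gate of Ad-COMBO kept under 50 cells and gave no value.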
